A study of Mus musculus with 3 samples.

Results

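The cytosolic ribosomal protein genes are the genes for the proteins of the 2 subunits of the cytoplasmic ribosome. They were taken by gene symbol: Rpl or Rps followed by a number and optional letters, with Rplp0, Rplp1, Rplp2 and Rpsa, and without the pseudogene names that carry -ps and without the Rps6k kinases. All 3 deposited matrices held the same 93 members, among 29872 genes in the control matrix, 33850 in the cKO matrix and 33447 in the somatic-enriched matrix. Of the 93 members, 77 were core ribosomal proteins (46 of the large and 31 of the small subunit), 10 formed a list of paralogs and similarly named genes (Rpl3l, Rpl10l, Rpl39l, Rpl22l1, Rpl7l1, Rpl36al, Rps27l, Rps27rt, Rps4l and Rps19bp1), and 6 were other retrocopies. Rps19bp1 codes for a protein that binds a ribosomal protein and entered by its symbol only. The 7 symbols with a digit after the letters, such as Rps3a1 and Rpl22l1, were kept; a strict reading of the pattern held 86. Members took 6.76% of all unique molecular identifiers (UMIs, each standing for 1 captured mRNA molecule) in the control matrix, 13.4% in the cKO matrix and 6.59% in the somatic-enriched matrix. The matrices differ in their mix of cell types, so these totals are not compared here.

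The study asked which testicular cells supply stem cell factor (SCF) to the germline. Droplet libraries (10x Chromium 3′ v2) were made from 3 kinds of C57BL/6-background testis sample. The control library came from *Scf fl/fl* mice of 6 weeks and the cKO library from *Amh-cre; Scf fl/fl* mice of 6 weeks, in which Cre acts in Sertoli cells. In both, haploid round and elongating spermatids were depleted by sorting. The third library held Tomato-negative cells of *Ddx4-creER; R26tdTomato* mice of 8 weeks given tamoxifen, a sort that removes germ cells marked through Ddx4. Each library pooled 3 mice whose cells carry no tag, so there was 1 library per condition and no test between conditions was possible. Genotype, library, sorting and, for the Tomato-negative cells, age cannot be told apart. Intervals below are 95% intervals and cover counting error only.

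Ribosomal proteins are made in near-equal numbers, because each ribosome holds 1 copy of most of them. Their mRNAs are short, abundant and begin with a terminal oligopyrimidine (TOP) tract, through which their translation is adjusted together with that of the elongation factors. In male meiosis the X and Y chromosomes are known to be transcriptionally silenced at the pachytene stage, and several X-linked housekeeping genes have autosomal copies that are used in the testis.

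The bases around a transcript start of 8 members are shown, because the results turn on these genes: Rps24 and Rplp2 as abundant members, and 3 paralog pairs. Each window holds 15 bases on either side of a transcript start that RefSeq annotates on GRCm38.p6, written 5′ to 3′, with the longest run of C or T in capitals.
Rps24, chr14:24490663-24490692, plus strand: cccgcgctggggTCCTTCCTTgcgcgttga
Rplp2, chr7:141447636-141447665, plus strand: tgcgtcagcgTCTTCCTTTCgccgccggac
Rps27, chr3:90213634-90213663, minus strand: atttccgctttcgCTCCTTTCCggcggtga
Rps27l, chr9:66946071-66946100, plus strand: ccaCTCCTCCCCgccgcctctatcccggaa
Rpl39, chrX:37085208-37085237, minus strand: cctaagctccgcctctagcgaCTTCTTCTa
Rpl39l, chr16:10170213-10170242, plus strand: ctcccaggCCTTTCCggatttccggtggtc
Rpl10, chrX:74270801-74270830, plus strand: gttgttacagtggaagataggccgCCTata
Rpl10l, chr12:66284387-66284416, minus strand: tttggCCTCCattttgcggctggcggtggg
The run was 10 bases long in Rplp2, 9 in Rps24, Rps27 and Rps27l, 8 in Rpl39, 7 in Rpl39l, 5 in Rpl10l and 3 in Rpl10. In Rps27l, Rpl39l and Rpl10l the run lay wholly before the RefSeq start shown. In Rps24, Rplp2 and Rps27 it spanned that start, and in Rpl39 and Rpl10 it lay after it. The gene annotation used for the positions further below begins Rpl39l at 10170226, within the end of its run. Of 93 symbols, 68 matched the RefSeq promoter table, with 80 promoters. A run of at least 8 C or T within 20 bases of the start was present in 32 of these 80 (40%) and in 16.0% of all 32851 promoters of the same 300 bases. The letters CCGGAAG, searched on both strands, were in 27 of the 80 (33.8%) and in 8.86% of all promoters; the reverse complement holds 5 pyrimidines in a row and can overlap a run.

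Cells were kept at 200 to 3500 detected genes and at most 10% mitochondrial UMIs, the limits given in the study's methods. This left 3637 of 6264 control barcodes, 4545 of 7252 cKO barcodes and 2159 of 7626 Tomato-negative barcodes, with median depths of 4599, 5359 and 5515 UMIs. Under a limit of 7500 genes the numbers were 5976, 7018 and 5087. The study's own numbers of retained cells are close to those of the higher limit, although its methods give the lower one. By construction, the lower limit removes the cells with many detected genes. In the control library it left 164 late spermatocytes (median 4005 UMIs), and the limit of 7500 genes left 961 (median 45911 UMIs). The late spermatocyte markers summed to 4009 CPM (a part of all UMIs of the class, on the usual CPM scale) and the early spermatocyte markers to 5347 CPM in the 164 cells. The same sums were 8132 and 1582 CPM in the 961 cells, so the smaller class held more early than late markers and went against its label. Shares, member counts and X-linked and paralog parts of spermatocytes and spermatids are therefore given under both limits; other values of these stages hold for the limit named beside them. Round spermatids were also mixed: in the control class the elongating spermatid markers summed to 33230.4 CPM and the round spermatid markers to 5316 CPM. Clusters were made without the member genes and named from marker lists. The control and cKO libraries held no Sertoli class, so Kitl, the gene for SCF, could not be checked in the cells from which it was deleted. It stood at 73.1 CPM in Tomato-negative Sertoli cells and, outside the cells with Cre, at 346 CPM in control and 325 CPM in cKO Tcf21 stromal cells. Pairs of libraries shared 9 to 15 barcode sequences. Scrublet called 3.42 to 4.62% of the barcodes of a file doublets, and these were left in.

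Every cell was thinned to 1000 UMIs before shares were compared, so that deep and shallow cells carried equal weight. In the control library the ribosomal protein share of UMIs was 14.9% in undifferentiated spermatogonia (59 cells, interquartile range over cells 12.4 to 18.3%). It was 11.2% in differentiating spermatogonia, 8.65% in early spermatocytes and 5.46% in late spermatocytes (135 cells, interquartile range 2.2 to 8.2%). Round spermatids stood at 2.01% and elongating spermatids at 3.27%. The share was thus lower at each stage from undifferentiated spermatogonia to round spermatids, and the interquartile ranges of undifferentiated spermatogonia and late spermatocytes did not overlap. The undifferentiated share was 2.73-fold the late spermatocyte share (2.65 to 2.82). The ratio was 5.49 with doublets removed before clustering and 4.72 with the members left in for clustering, at the same limit.

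Under the limit of 7500 genes the control shares were 14.7, 11.5, 9.04, 4.96, 3.46 and 2.94% in the same order of stages. The undifferentiated share was then 2.96-fold the late spermatocyte share. Elongating spermatids were above round spermatids at the limit of 3500 genes and below them at 7500, so these neighbours have no fixed order. The Tomato-negative shares were 12.1, 9.31, 9.81, 3.28, 1.83 and 4.79% at 3500 genes and 17.2, 12.2, 10.5, 4.70, 4.42 and 3.44% at 7500. The order of differentiating spermatogonia and early spermatocytes also turned with the limit there. Late spermatocytes lay below early spermatocytes in both libraries at both limits.

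**Figure D1:**
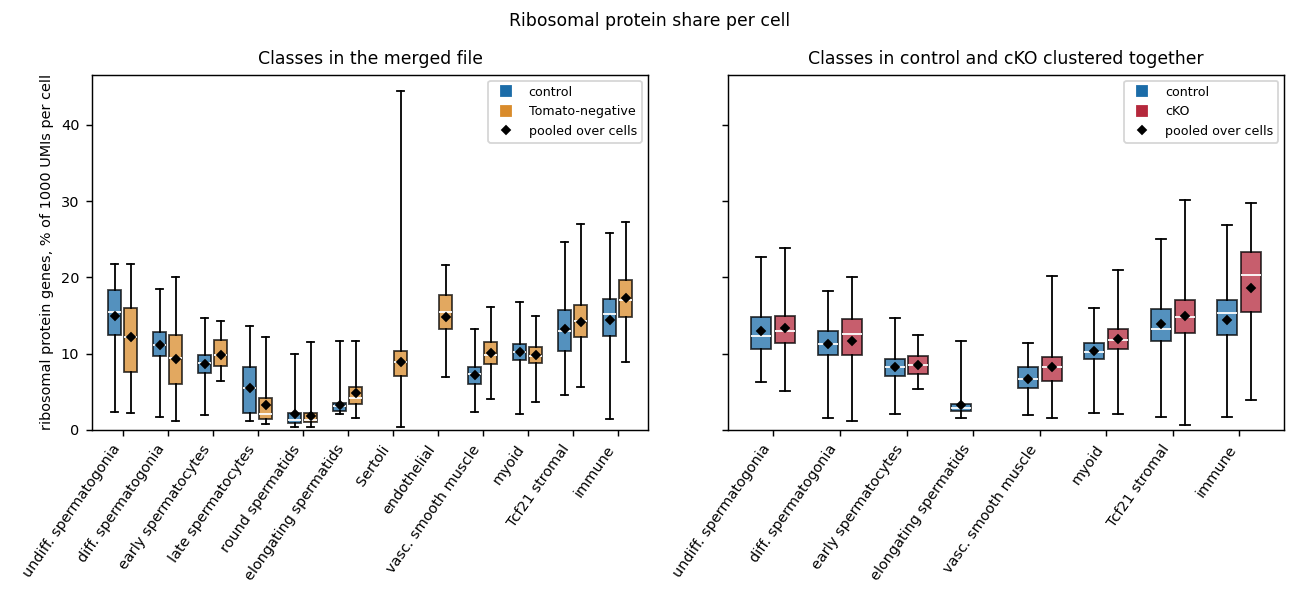
Ribosomal protein share of UMIs per cell (percent, cells thinned to 1000 UMIs) by cell class, for control and Tomato-negative cells on the left and for control and cKO cells, clustered together, on the right. Boxes span the interquartile range of the cells with a white line at the median, whiskers reach the lowest and highest cell, and diamonds are pooled over cells; in the left panel the control diamonds run from 14.9% in undifferentiated spermatogonia to 2.01% in round spermatids.

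Somatic classes of the control library had shares of 14.4% in immune cells, 13.2% in Tcf21 stromal cells, 10.2% in myoid cells and 7.14% in vascular smooth muscle cells. Tomato-negative cells had 17.2, 14.1, 9.76 and 10.0% in these classes, with 14.8% in endothelial cells and 8.84% in Sertoli cells. Vascular smooth muscle cells thus lay below myoid cells in one library and did not in the other. Sertoli cells were lowest of the Tomato-negative somatic classes with at least 30 cells, and at 7500 genes stood at 7.03%. The small-subunit proteins made up 44 to 49% of core member UMIs in the named classes.

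Rps24 and Rpl32 led the members in spermatogonia. Droplet 3′ libraries count each captured molecule once, so levels in CPM were compared between genes without scaling by length. At 3500 genes in control undifferentiated spermatogonia Rps24 stood at 6225 CPM and Rpl32 at 5017 CPM. In elongating spermatids they were Rps20 (2729 CPM, 8.80% of member UMIs), Rpl41 (2023 CPM), which codes for the shortest ribosomal protein, and Rps24 (1767 CPM). In late spermatocytes Rps20 held 3.84% of member UMIs. In Sertoli cells Rps29 (6118 CPM) and Rpl41 (4218 CPM) led.

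Most core members were lower in late spermatocytes than in undifferentiated spermatogonia of the control library. Of 85 members with at least 20 UMIs, 1 was at least 2-fold higher in late spermatocytes and 65 at least 2-fold lower; of all 7419 genes tested, 31.7% were higher and 21.6% lower. The median log2 ratio was -1.44 for members and 0.21 for all genes. All 73 autosomal core members had an interval below 0. At the limit of 7500 genes, 2 of 92 members were higher and 68 lower, against 28.9% and 45.2% of 16865 genes, with medians of -1.55 and -0.67. There the 73 autosomal core members lay between -3.09 (Rpl14) and -0.14 (Rpl36), and 56 were at least 2-fold lower.

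Among Tomato-negative cells, 0 of 83 members were higher and 65 lower at the limit of 3500 genes (31.4% and 29.8% of all genes). At 7500 genes, 2 of 91 were higher and 75 lower (25.8% and 52.1%), with medians of -2.0 for members and -1.15 for all genes. Members lay below the median of all genes in both libraries at both limits.

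The size of the member difference varied from step to step. From undifferentiated to differentiating spermatogonia of the control library at 3500 genes, 2 of 88 members were at least 2-fold higher and 5 lower (18.3% and 15.7% of all genes), and the member median was -0.44. From there to early spermatocytes, 0 of 89 were higher and 8 lower (13.6% and 22.0%, median -0.39), and on to late spermatocytes 1 was higher and 11 lower (21.5% and 15.6%, median -0.64). The lowest control median was from late spermatocytes to round spermatids, where 0 of 85 were higher and 59 lower (18.8% and 41.6%, median -1.24). From round to elongating spermatids 9 of 78 were higher and 14 lower (16.9% and 50.6%).

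At 7500 genes the lowest control median came at an earlier step. From early to late spermatocytes 3 of 92 members were higher and 44 lower (30.2% and 43.6% of all genes), with a median of -0.90 for members and -0.54 for all genes. The earlier steps had 2 higher and 4 lower of 92 (10.5% and 15.8%, medians -0.38 and 0.04) and 1 higher and 7 lower of 92 (15.7% and 21.3%, medians -0.32 and -0.05). From late spermatocytes to round spermatids 0 of 91 were higher and 16 lower (27.1% and 37.3%, medians -0.54 and -0.49), and from round to elongating spermatids 5 of 87 were higher and 8 lower (16.2% and 39.6%, medians -0.24 and -0.63). Set against all genes, the step from early to late spermatocytes was thus no larger than that from undifferentiated to differentiating spermatogonia.

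Tomato-negative members had their lowest median from early to late spermatocytes at either limit. At 3500 genes 1 of 83 members was higher and 51 lower there (23.1% and 38.7% of all genes, member median -1.23), and at 7500 genes 3 of 88 were higher and 47 lower (27.7% and 43.0%), with a median of -1.08 for members and -0.46 for all genes. From undifferentiated to differentiating spermatogonia these medians were -0.58 and 0.05 at 7500 genes, so relative to all genes the 2 steps were alike in size. The 2 steps before had 2 and 5 of 87 (14.5% and 8.77%) and 4 and 5 of 87 (14.0% and 23.6%) at 3500 genes, and 2 and 6 of 92 (11.7% and 16.7%) and 0 and 5 of 90 (14.6% and 24.3%) at 7500. Round over late spermatocytes had 1 and 32 of 82 (37.1% and 29.6%) at 3500 and 0 and 5 of 88 (29.6% and 17.9%) at 7500 genes. Elongating over round spermatids had 33 and 5 of 86 (16.6% and 49.3%) at 3500 and 7 and 4 of 87 (25.4% and 33.2%) at 7500 genes. More Tomato-negative members were thus higher than lower in elongating spermatids at 3500 genes, with a median of 0.72, while at 7500 genes the median was -0.15.

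The median of all genes itself moved at several of these steps. At 3500 genes in the control library it was -0.73 from late spermatocytes to round spermatids and -1.02 from round to elongating spermatids, and in the Tomato-negative library -0.47 from early to late spermatocytes and -0.95 from round to elongating spermatids. Relative to that median, 0 control members were at least 2-fold higher and 13 lower in round than in late spermatocytes, and 43 were higher and 2 lower in elongating than in round spermatids. The share of all genes past 2-fold relative to that median was not computed, so counts on this scale are a description only. The Tomato-negative counts relative to it were 3 higher and 29 lower from early to late spermatocytes and 71 higher and 2 lower from round to elongating spermatids. They were 5 and 2 from differentiating spermatogonia to early spermatocytes, and 1 and 5 for the step before. In the control library the step from early to late spermatocytes then had 2 in each direction. Member medians relative to all genes at 3500 genes were -0.51, -0.28, -0.45, -0.51 and 1.11 for the 5 control steps in order, and -0.50, 0.04, -0.75, -0.92 and 1.67 for the Tomato-negative ones. Taken this way, the control members had near-equal lowest medians at the first and the fourth step, and the Tomato-negative members had theirs at the fourth. At the step to elongating spermatids in the control library, the balance of members past 2-fold thus turned with the scaling. The share itself was higher in elongating (3.27%) than in round spermatids (2.01%) without it. Late spermatocytes remained below undifferentiated spermatogonia with the scaling, with 1 member higher and 71 lower.

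The lowest ratios among autosomal members included proteins of both subunits. Rps2, which sits at the mRNA entry, stood at 3813 CPM in control undifferentiated spermatogonia and 618.5 CPM in late spermatocytes, a log2 ratio of -2.62 (-2.80 to -2.45) at 3500 genes. Rps3, its neighbour at the entry, had a log2 ratio of -2.55, Rps3a1 -2.42 and Rps16 -2.24. For the large subunit, Rpl4 had -2.16 and Rpl34 -2.12. At 7500 genes the control log2 ratios were -3.07 for Rps2, -2.34 for Rps3, -2.69 for Rps3a1, -2.82 for Rps16, -2.16 for Rpl4 and -1.86 for Rpl34. The lowest in Tomato-negative cells at 3500 genes were Rps2 at -4.16, Rpsa at -3.24 and Rpl14 at -3.09. At 7500 genes Rpl14 stood at 2502 CPM in control undifferentiated spermatogonia, 294.7 CPM in late spermatocytes and 24.9 CPM in round spermatids. It stood at 83.5 CPM in elongating spermatids.

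The stalk proteins Rplp0, Rplp1 and Rplp2, which recruit the elongation factors, and Rpsa, which is also known as a laminin receptor precursor, did not keep a fixed ratio. At 7500 genes in the control library Rplp0 stood at 2797 CPM in undifferentiated spermatogonia and 1469 CPM in late spermatocytes. Rplp1 stood at 4026 and 802 CPM, Rplp2 at 3630.4 and 471 CPM, and Rpsa at 2153 and 360 CPM. Rplp0 was thus below Rplp1 and Rplp2 in spermatogonia and above both in late spermatocytes. In the Tomato-negative library the late spermatocyte levels were 869 CPM for Rplp0, 674 for Rplp1 and 563 for Rplp2. The order held there, while at 3500 genes Rplp0 (971 CPM) lay below Rplp1 (1303 CPM) in control late spermatocytes.

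**Figure D2:**
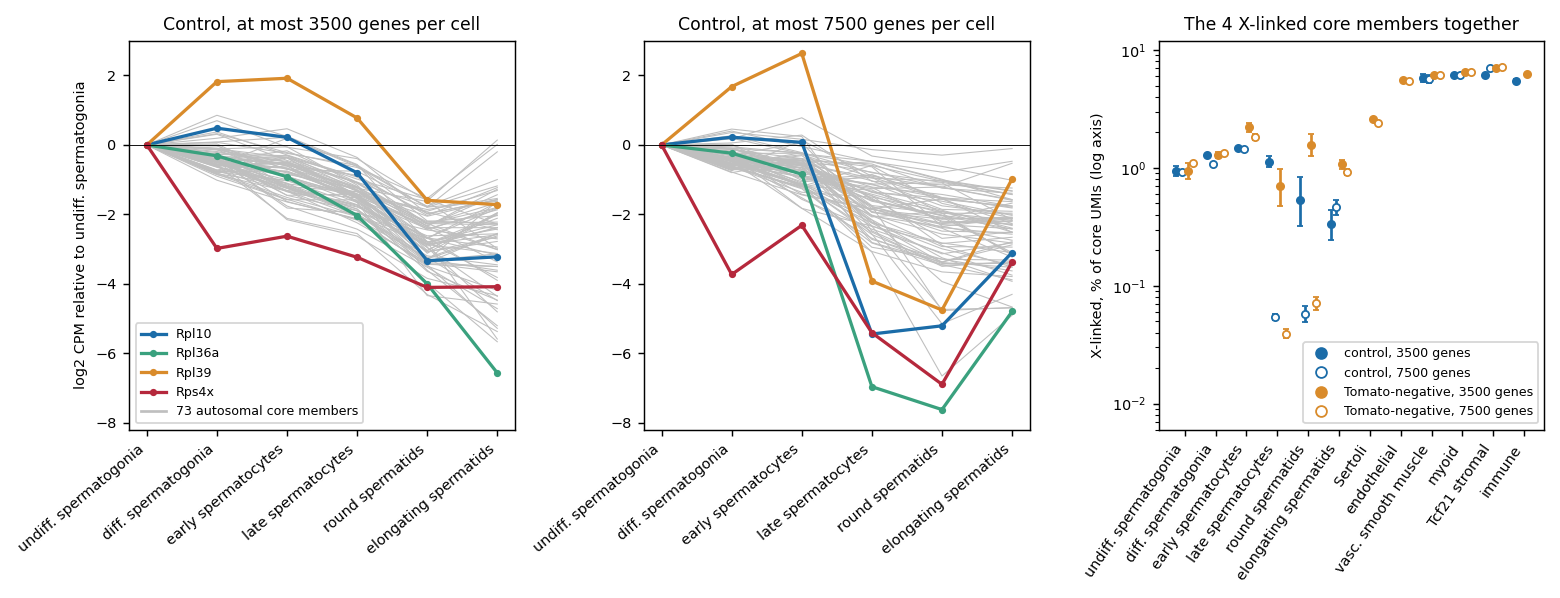
Log2 CPM of the 77 core members relative to undifferentiated spermatogonia across germ cell stages of the control library at the limits of 3500 and 7500 genes (grey lines autosomal, coloured lines X-linked, levels under 3 counts drawn at 3 counts), and the X-linked members together as a percent of core UMIs on a log axis by class (bars 95% counting intervals). At 7500 genes the X-linked part is 0.0545% in control late spermatocytes and 1.45% in early spermatocytes.

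The 4 X-linked core members, Rpl10, Rpl36a, Rpl39 and Rps4x, departed from the other 73 in germ cells. In the control library at 3500 genes they made up 0.944% of core UMIs in undifferentiated spermatogonia, 1.28% in differentiating spermatogonia and 1.47% in early spermatocytes. They made up 1.13% in late, 0.536% in round and 0.333% in elongating classes. In control somatic classes they made up 5.46 to 6.20%, and in Tomato-negative somatic classes other than Sertoli cells 5.53 to 7.05%. Sertoli cells held 2.58%, between germ cells and the other somatic classes. The highest germ cell value was 2.22%, in Tomato-negative early spermatocytes.

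The late spermatocyte value depended on the limit and, at 3500 genes, on the clustering. At 7500 genes the X-linked members held 1012 of 1856339 core UMIs in control late spermatocytes (0.0545%), beside 1.45% in early spermatocytes. Control round spermatids held 0.0578% and elongating spermatids 0.463%. In the Tomato-negative library the same 3 classes held 0.0392, 0.0711 and 0.926%. At 7500 genes late spermatocytes and round spermatids were thus the low classes in both libraries, with elongating spermatids above them. The ratio of late spermatocytes to undifferentiated spermatogonia in thinned control cells was 0.0759 at 7500 genes and 1.33 (0.974 to 1.82) at 3500. At the limit of 3500 genes its direction turned to 0.248 (0.104 to 0.511) with doublets removed, where late spermatocytes held 0.268% before thinning, and to 0.191 (0.0510 to 0.509) with the members left in for clustering. In the Tomato-negative library it was 0.427 (0.0833 to 1.37).

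Each X-linked member followed its own course before meiosis. Levels are given in CPM at 7500 genes in the control library, for undifferentiated spermatogonia, differentiating spermatogonia, early spermatocytes and late spermatocytes in turn. Rps4x, a small-subunit protein, stood at 283, 21.3, 56.9 and 6.7 CPM. Rpl39, which lines the exit tunnel, stood at 83.8, 268, 520.0 and 5.5 CPM. Rps4x was thus low from differentiating spermatogonia on, while Rpl39 was highest in early spermatocytes. Rpl10, which joins the large subunit late in its assembly, stood at 364, 424, 383 and 8.4 CPM. Rpl36a, a large-subunit protein, stood at 611, 519, 341 and 4.9 CPM. In the Tomato-negative library the late spermatocyte levels of Rpl10, Rpl36a, Rpl39 and Rps4x were 3.6, 4.4, 7.0 and 2.5 CPM. At 7500 genes all 4 were at least 2-fold higher in elongating than in round spermatids. Median log2 ratios were 3.17 in the control and 3.61 in the Tomato-negative library, where 16.2% and 25.4% of all genes were at least 2-fold higher. At 3500 genes the X-linked part of core UMIs was lower in elongating than in round spermatids. It was 0.333 and 0.536% in the control (47 and 19 UMIs) and 1.07 and 1.57% in the Tomato-negative library. The elongating class at 3500 genes held 9 Kitl UMIs (8.36 CPM) in the Tomato-negative and 0 in the control library. The part of somatic RNA in these X-linked values was not tested.

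The autosomal paralogs of these 4 genes held most UMIs of their pairs in late spermatocytes at 7500 genes. Rpl10l lies on chromosome 12 (GRCm38, 66283379 to 66284401, minus strand), Rpl36al on chromosome 12 (69182731 to 69184083), Rpl39l on chromosome 16 (10170226 to 10174911) and Rps4l on chromosome 6 (148354656 to 148355598). The annotation lists the first 3 as protein coding and Rps4l as a transcribed processed pseudogene. The parents on chromosome X lie at 74270812 to 74273135 (Rpl10), 134585654 to 134588062 (Rpl36a), 37082520 to 37085402 (Rpl39) and 102184941 to 102189394 (Rps4x). The sources used here do not say how reads that fit several near-identical copies were treated, so counts within these pairs are uncertain.

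For Rpl10l, the percent of the UMIs of Rpl10 and Rpl10l in the control library at 7500 genes was 12.4 in undifferentiated spermatogonia, 4.45 in differentiating spermatogonia and 6.08 in early spermatocytes. It was 94.4 (93.8 to 95) in late spermatocytes, 92.1 in round spermatids and 28.2 in elongating spermatids. Late spermatocytes held 5632 Rpl10l UMIs and 332 Rpl10 UMIs. In the Tomato-negative library the late value was 97.9. Myoid and Tcf21 stromal cells stood at 0.16 to 0.20 in the control library, as the level in cells that should lack Rpl10l. At 3500 genes the control late spermatocytes stood at 25 (37 and 111 UMIs) and the Tomato-negative ones at 77.8 (7 and 2 UMIs). The jump between early and late spermatocytes was thus present at both limits, and its size was not.

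Rpl36al and Rpl39l also made up most of their pairs in control late spermatocytes at 7500 genes. Rpl36al made up 16.8% of its pair in early and 94.4% in late spermatocytes. Its own level was 68.8 CPM in early and 82.8 CPM in late spermatocytes, and the pair's other gene, Rpl36a, stood at 341 and 4.9 CPM. Rpl39l already made up 88.2% of its pair in undifferentiated spermatogonia, 39.0% in early and 99.6% in late spermatocytes. Its level ran from 624.5 CPM to 333 CPM and 1490.3 CPM at these stages, the highest of any paralog in late spermatocytes. At 3500 genes the late values of the pairs were 39.2% for Rpl36al and 72.6% for Rpl39l.

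Rps4l made up most of its pair from undifferentiated spermatogonia to late spermatocytes. In the control library at 7500 genes it made up 71.6% of the pair in undifferentiated spermatogonia, 95.9% in differentiating spermatogonia, 86.8% in early and 98.1% in late spermatocytes. The level of Rps4l itself was 714.5 CPM in undifferentiated spermatogonia, 352 CPM in late spermatocytes and 39.5 CPM in elongating spermatids. The somatic classes of the control library at 3500 genes stood at 2.1 to 9.92% of the pair.

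**Figure D3:**
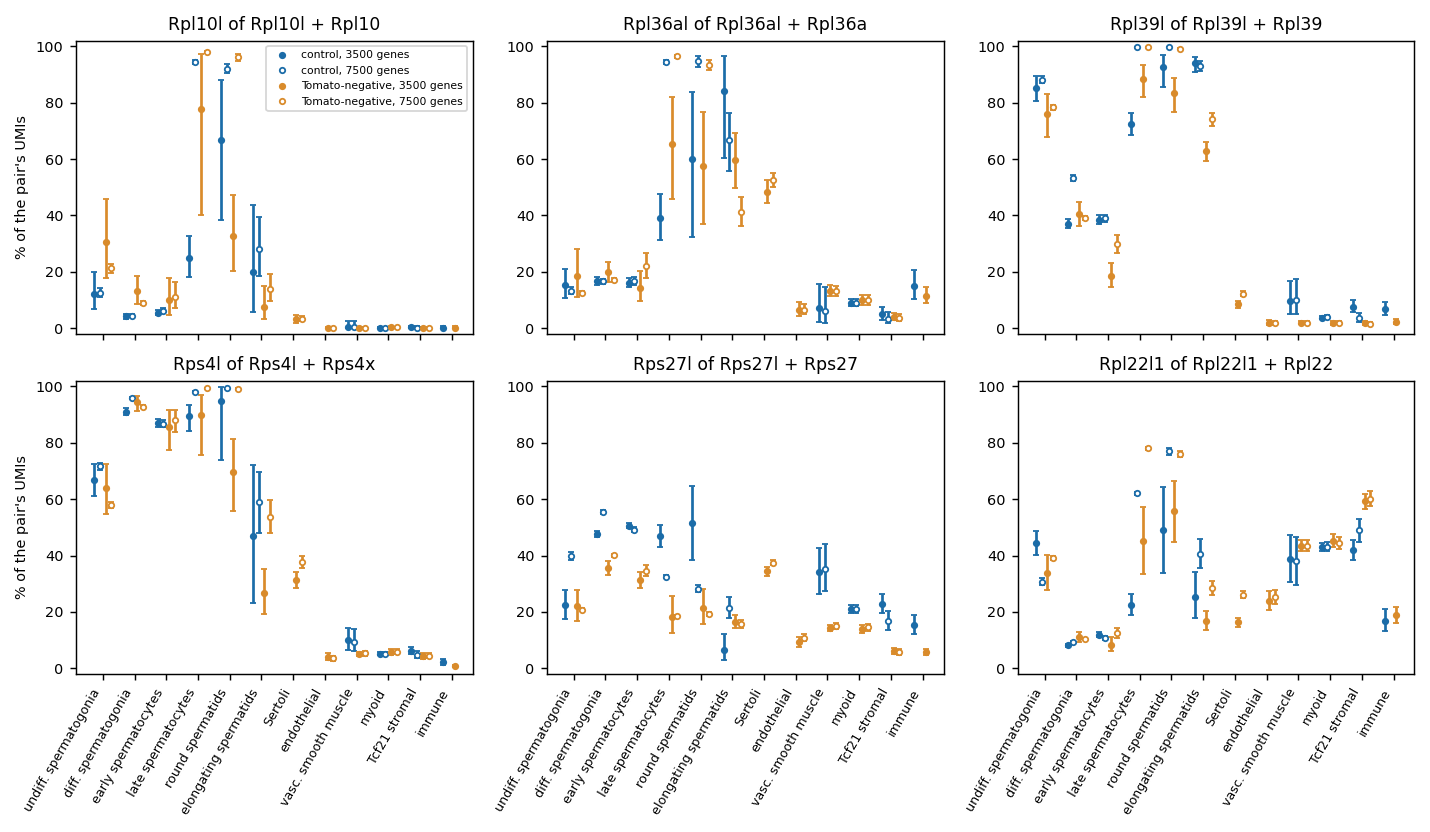
Percent of the UMIs of each parent and paralog pair that belonged to the paralog, by germ cell stage and somatic class, for 6 pairs (filled points 3500 genes, open points 7500 genes, bars 95% counting intervals). Rpl10l makes up 6.08% of its pair in control early spermatocytes and 94.4% in control late spermatocytes at 7500 genes.

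Of the 2 pairs with autosomal parents, Rpl22l1 also made up more of its pair in late than in early spermatocytes. It made up 30.8% of the pair's control UMIs at 7500 genes in undifferentiated spermatogonia, 10.7% in early and 62.1% in late spermatocytes. In Tomato-negative late spermatocytes it made up 78.0%. Rps27l, a known p53 target, went the other way: it made up 49.2% of the Rps27 pair in control early spermatocytes, 32.4% in late spermatocytes and 21.2% in elongating spermatids. Its level was highest in early spermatocytes, at 980.3 CPM. At 3500 genes Rps27l was the 1 member at least 2-fold higher in late spermatocytes than in undifferentiated spermatogonia (216 and 518 CPM, log2 ratio 1.25), while at 7500 genes its log2 ratio was -0.78.

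Rpl10l and Rpl39l were the 2 members at least 2-fold higher in late spermatocytes than in undifferentiated spermatogonia at 7500 genes. Rpl10l had a log2 ratio of 1.45 in the control and 1.18 in the Tomato-negative library, and Rpl39l of 1.25 and 1.12. Rpl3l, known as a muscle paralog, stood at 12.1 CPM or less in every class at either limit. The 6 retrocopies carried few UMIs; Rpl37rt, the most abundant, stood at 24.0 CPM in control undifferentiated spermatogonia and 8.6 CPM in late spermatocytes at 7500 genes.

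Undifferentiated spermatogonia and Tcf21 stromal cells had near shares (14.9 and 13.2% in the control library) and differed by single members. In the control library at 3500 genes, 8 of 84 members were at least 2-fold higher in spermatogonia and 3 lower, where 27.5% of all genes were higher and 20.4% lower. The 3 lower members were Rpl39 (134 and 1413 CPM, log2 ratio -3.38), Rps4x (326 and 3071 CPM, -3.23) and Rpl10 (319 and 2462 CPM, -2.94). Rpl36a, the fourth X-linked member, had a log2 ratio of -0.49. The highest were Rpl39l at 2.72, Rps4l at 1.73 and Rpl4 at 1.38. Tomato-negative cells had 4 of 85 higher and 9 lower (35.3% and 24.5% of all genes), and cKO cells 6 of 89 higher and 9 lower (36.2% and 26.9%). Rpl39 had -3.83 and -4.47 there, Rps4x -3.31 and -3.75, and Rpl10 -3.57 and -3.70. All 3 libraries thus placed these 3 X-linked members low in spermatogonia. Rpl36a was lower there as well, by less. It held 71 of 152178 UMIs in Tomato-negative spermatogonia and 856 of 600067 in Tomato-negative stroma. In cKO cells it held 373 of 697269 and 8413 of 7894532. Relative to the median of all genes, which was 0.35 in the control and 0.38 in the cKO library, the counts were 4 higher and 5 lower in the control, 4 and 13 in the Tomato-negative and 2 and 16 in the cKO library. The share of all genes past 2-fold on that scale was not computed.

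Sertoli cells, which occurred as a class in the Tomato-negative library alone, stood further from the stroma. Of 87 members, 6 were at least 2-fold higher in Sertoli than in Tcf21 stromal cells and 31 lower, where 31.6% of all genes were higher and 27.0% lower. Rpl36a stood at 192 and 1427 CPM, Rps4x at 398 and 2838 CPM, and Rpl10 at 384 and 2538 CPM. Rpl22l1 was low as well, at 211 and 1368 CPM. The highest log2 ratios belonged to Rps19bp1 (2.45), Rps27l (1.94), Rpl7l1 (1.90) and Rpl36al (1.62). Rpl36al made up 48.5% of its pair in Sertoli cells and 3.93% in Tcf21 stromal cells.

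**Figure D4:**
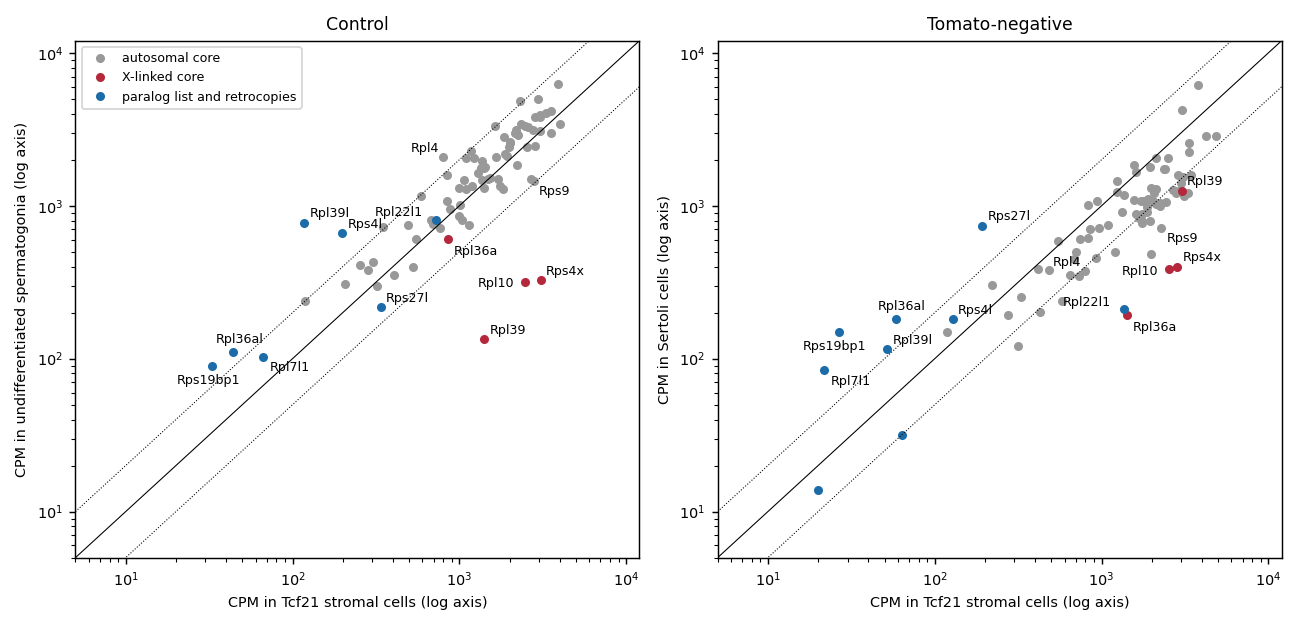
Level of each member (CPM, log axes) in undifferentiated spermatogonia against Tcf21 stromal cells of the control library, and in Sertoli against Tcf21 stromal cells of the Tomato-negative library, with dotted lines at 2-fold. Rpl39, Rps4x and Rpl10 lie below the lower line in both panels, and Rpl39l lies above the upper line in spermatogonia.

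Other genes of the translation machinery were followed through lists. From undifferentiated spermatogonia to late spermatocytes of the control library at 3500 genes, 2 of 12 elongation factors and other TOP mRNAs were at least 2-fold higher and 7 lower (median log2 ratio -1.23). Of 26 ribosome biogenesis genes, 1 was higher and 11 lower (median -0.80), and of 28 initiation factor genes, 2 were higher and 10 lower (median -0.67). Of 75 mitochondrial ribosomal protein genes, 2 were higher and 26 lower (median -0.55). Of all 7419 genes, 31.7% were higher and 21.6% lower. Each list lay below the median of all genes, 0.21, and above the median of the cytosolic ribosomal proteins, -1.44. The lists were followed at 3500 genes only, where the late spermatocyte class held more early than late markers.

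The C and T run at the start divided the members little. At 3500 genes, among autosomal core members with a promoter in the table, 27 with the run had a median log2 ratio of late spermatocytes to undifferentiated spermatogonia of -1.61, and 26 without it of -1.42. For CCGGAAG the medians were -1.72 in 23 members with the letters and -1.41 in 30 without. The ranges overlapped: members with the run lay between -2.16 and -0.36, and those without between -2.62 and -0.39.

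For cKO against control, both libraries were clustered together at the limit of 3500 genes, so these classes are in general not the ones above. The exception was control vascular smooth muscle, with 38 cells and 152959 UMIs in both clusterings. Undifferentiated spermatogonia had a share of 13.3% in cKO (175 cells) and 12.9% in control (152 cells), a ratio of 1.03 (1.01 to 1.05). Differentiating spermatogonia had 11.7 and 11.2%, and early spermatocytes 8.50% (38 cells) and 8.22%, a ratio of 1.03 (0.998 to 1.07). All 3 germ cell ratios thus lay near 1. Without integration of the libraries the undifferentiated ratio was 0.889, and with free RNA subtracted 0.988, so its direction depended on the processing.

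In somatic classes the cKO shares were higher. They were 11.9 and 10.3% in myoid cells (ratio 1.15), 14.9 and 13.9% in Tcf21 stromal cells (1.07), 8.24 and 6.66% in vascular smooth muscle cells (1.24) and 18.7 and 14.4% in immune cells (1.29). The interquartile ranges over cells overlapped in each of these classes. For the control vascular smooth muscle cells, 6.66% here and 7.14% above come from different draws of the thinning. Without thinning the cKO ratio of vascular smooth muscle was 1.17 (1.15 to 1.20), so the size of 1.24 depended in part on the draw. The Tomato-negative library, in which Scf is not deleted, stood against control at 1.41 in vascular smooth muscle, 1.19 in immune, 1.07 in Tcf21 stromal and 0.955 in myoid cells. The ratio to control was thus larger in the Tomato-negative library than in cKO in vascular smooth muscle, alike in Tcf21 stromal cells, and larger in cKO in myoid and immune cells.

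The differentiating class was not the same cells in both libraries. It held 168 cKO cells with a median of 936 UMIs, of which 87 were too shallow for thinning, and 119 lay in a cluster with a median of 790 UMIs. Control cells lay mostly in other clusters. The undifferentiated markers summed to 549 CPM in cKO and 113 CPM in control cells of this class, and to 1170 and 555 CPM in the undifferentiated class. Dissociation stress genes were higher in cKO: 7 of 8 in differentiating and 5 of 9 in undifferentiated spermatogonia passed 1.5-fold. The part of these differences in the member ratios was not tested.

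Most members differed by less than 1.5-fold between cKO and control in each class. In undifferentiated spermatogonia 5 of 86 were higher and 8 lower, where 15.9% and 18.1% of all genes were. In differentiating spermatogonia 7 of 88 were higher and 10 lower (20.2% and 24.8%), and in early spermatocytes 5 of 87 in each direction (16.1% and 21.8%). The counts were 4 and 2 of 90 in myoid (9.34% and 14.7%), 6 and 4 of 88 in Tcf21 stromal (15.7% and 22.7%), 9 and 4 of 83 in vascular smooth muscle (16.7% and 16.7%), and 15 and 3 of 86 in immune cells (20.5% and 21.6%). These percents are set beside the member counts as a description; the difference was not tested. Relative to the median of all genes, the myoid counts were 8 and 2 and the differentiating counts 10 and 4, with no share of all genes computed on that scale. The median log2 ratio of members was -0.03 in undifferentiated spermatogonia, 0.17 in myoid and 0.35 in immune cells, beside -0.05, -0.07 and -0.04 for all genes.

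Single members stood apart in one direction in all 7 classes, which share the same 2 libraries. Rps10, a small-subunit protein near the mRNA entry, stood at 389 CPM in control and 552 CPM in cKO undifferentiated spermatogonia, 314 and 587 in differentiating spermatogonia, and 144 and 342 in early spermatocytes. In somatic classes it stood at 190 and 417 CPM in vascular smooth muscle, 256 and 541.0 in myoid, 313 and 689 in Tcf21 stromal, and 442 and 987 in immune cells. Its log2 ratios ran from 0.51 to 1.26. In Tomato-negative cells Rps10 stood at 328 CPM in Tcf21 stromal and 219 CPM in myoid cells, near the control levels. Rps19, which is mutated in Diamond-Blackfan anaemia, had log2 ratios of 0.50 to 1.11, and Rps7 of 0.37 to 0.70.

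Rpl38, Rpl35 and Rpl27a, all of the large subunit, were lower in cKO in the 7 classes. Rpl38 had log2 ratios of -1.17 to -0.34, Rpl35 of -0.80 to -0.47 and Rpl27a of -1.16 to -0.30. In Tcf21 stromal cells Rpl38 stood at 605 CPM in control and 300.3 CPM in cKO, and at 1243 CPM in the Tomato-negative library. The control level thus lay between those of the other 2 libraries. Rps29 had -0.65 to 0.08, and in Tcf21 stromal cells of the first clustering stood at 3791 CPM in Tomato-negative and 1364 CPM in control cells.

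**Figure D5:**
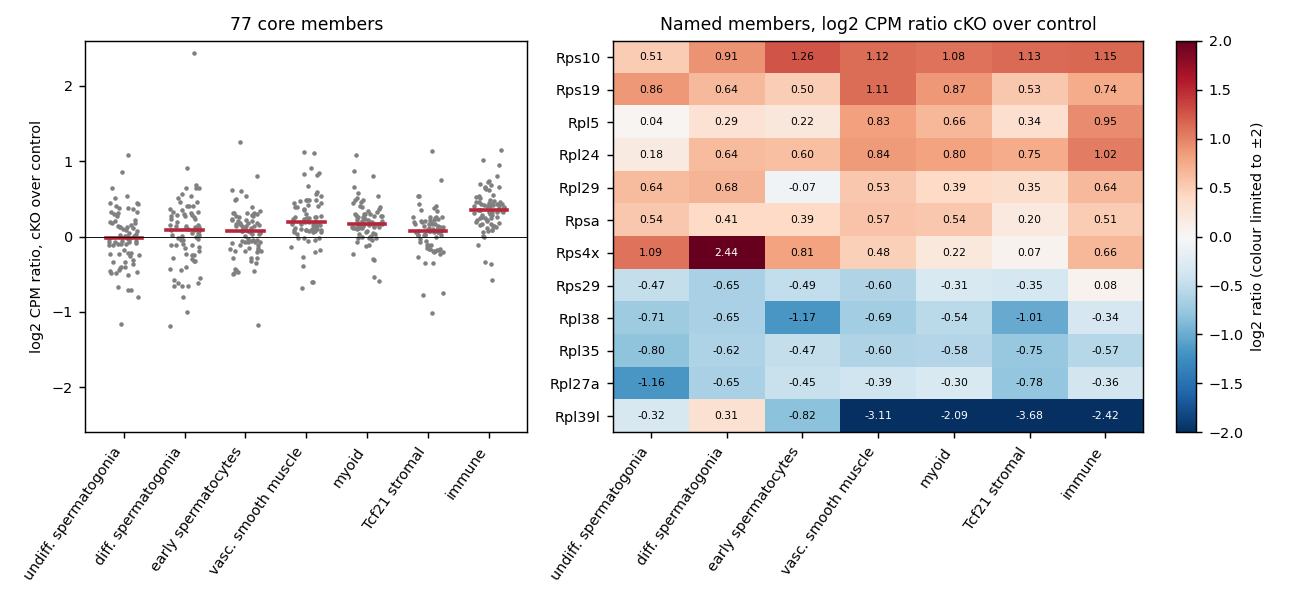
Log2 ratio of CPM, cKO over control, in 7 classes: on the left 1 point per core member with the median as a red line, on the right the values of 12 named members, with colours limited to 2 in either direction. The medians of core members lie between -0.02 and 0.35, and Rps10 between 0.51 and 1.26.

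Ratios of X-linked members and paralogs differed in size between classes; these differences were not tested. Rps4x stood at 137 CPM in control and 293 CPM in cKO undifferentiated spermatogonia (log2 ratio 1.09), and at 36.7 and 199 CPM in differentiating spermatogonia (2.44). Its log2 ratio was above 0 in all 7 classes: 0.81 in early spermatocytes, 0.66 in immune, 0.48 in vascular smooth muscle, 0.22 in myoid and 0.07 in Tcf21 stromal cells, with intervals that held 0 in early spermatocytes and Tcf21 stromal cells. Rps27l and Rps4l were lower in cKO undifferentiated spermatogonia, with -1.01 and -0.90. The Rps27l and Rps4x ratios of this class depended on the clustering. Control cells held 476 Rps27l and 104 Rps4x UMIs of 756688 here, and 63 and 95 of 291383 in the first clustering. The cKO cells held 217 and 204 of 697269. Against the control class of the first clustering, Rps27l was thus not lower and Rps4x not higher in cKO, while Rps4l was still lower. The cKO differentiating and undifferentiated classes held more undifferentiated markers than the control ones, as given above. Rps4x was higher in undifferentiated than in differentiating spermatogonia of every library. The part of the class make-up in the member ratios of both spermatogonial classes was not tested. Rpl39l stood at 71.9 CPM in control and 8.1 in cKO vascular smooth muscle, 45.6 and 10.7 in myoid, 70.9 and 5.6 in Tcf21 stromal, and 119 and 22.1 in immune cells. Transcripts of haploid germ cells were lower in cKO in the same 4 classes, with median log2 ratios between -6.76 and -4.40; their part in the Rpl39l difference was not tested.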

How the data were processed

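The deposited files hold UMI counts per gene and cell, made by the authors with Cell Ranger 2.1.1 on GRCm38, per the labels and methods. The somatic-enriched file also holds 6264 control cells with 0 values differing from the control file and 149 barcodes of the cKO file (5448 values differ), which were not analysed. The files held 68602272 to 287753612 UMIs. Members and gene lists were chosen with earlier results of these data known. The -ps features, 0.0216 to 0.0592% of UMIs, were left out. Cells were clustered with Seurat 5.3.0 (R 4.3.3) without the members, once for the control and Tomato-negative cells and once for control and cKO cells integrated, and named from marker lists where at least 3 markers were detected. Doublets were called with Scrublet in scanpy 1.11.5. Counts were summed per class and library and given as CPM. A log2 ratio adds 0.5 to each count and needs 20 counts; its interval is exact for 2 Poisson counts, and shares have exact binomial intervals. Genes were named by rule: the 8 highest and 8 lowest for late spermatocytes over undifferentiated spermatogonia, the 4 highest and lowest per other comparison with at least 100 counts, X-linked members, paralogs, stalk proteins, Rpsa and the 3 highest members per class. Rps7, Rpl3l, Rpl36, Rpl37rt and the other members named outside this rule were chosen after their values were seen. Calls were folds of 2 (stages) or 1.5 (cKO), with no test. Scripts were tested on simulated data. Alternatives included the limits of 7500 and no upper limit of genes, doublet removal, thinning to 2000 UMIs and median scaling. Protein sequences were not used here. Some results that these rules name are not reported here.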

Additional observations from a re-analysis of the deposited data

Results flagged for a closer look

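Named members were searched for cKO over control ratios past 1.5-fold in opposite directions in 2 classes, with both intervals leaving out 0; the differences between classes were not tested. Rpl10l had a log2 ratio, cKO over control, of 0.78 in undifferentiated spermatogonia and -2.32 in myoid cells, where it rested on 9 cKO and 13 control UMIs. Transcripts of haploid germ cells were also lower in cKO myoid cells, as given above, and their part in this Rpl10l ratio was not tested. Rpl22l1 had a log2 ratio of 0.60 in immune cells (379 cKO and 64 control UMIs) and -1.06 in early spermatocytes (19 cKO and 678 control UMIs).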

How the results depend on the processing

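Of the alternatives tried first, 68 values stayed near the reported ones, 24 moved by more than their counting interval or 1.5 times, and 2 changed direction. A change of direction was counted only where the reported interval left out 1. The X-linked ratio given below, whose interval held 1, was counted as moved where it fell below 1. Of those added after seeing the data, 9 stayed and 3 moved. The control ratio of the ribosomal protein share, undifferentiated spermatogonia over late spermatocytes (2.73), was 2.96 at 7500 genes, 2.97 with no upper limit, 4.72 with members left in the clustering, 5.49 without doublets, 2.54 at 2000 UMIs per cell, 2.97 with free RNA subtracted and 3.70 in the Tomato-negative library. The Rpl10l percent of its pair in control late spermatocytes (22.2 in thinned cells) was 89.7 at 7500 genes and 90.5 with no limit. It was 100 with members left in (54.1 to 100), 100 without doublets (71.5 to 100) and 100 in the Tomato-negative library (29.2 to 100). The X-linked ratio, late spermatocytes over undifferentiated spermatogonia (1.33), was 0.0759, 0.0847, 0.191, 0.248 and 0.427 in these 5 settings. The higher limits keep cells that the limit of 3500 genes removes; the cause of the other changes was not tested. The cKO over control ratio in undifferentiated spermatogonia (1.03) turned to 0.889 without integration and 0.988 with free RNA subtracted. It was 1.06 at 7500 genes, 1.1 with no limit, 1.12 with members left in and 1.07 with median scaling; at 7500 genes the class took in a cluster of 55 cells led by T cell genes. The myoid ratio was 1.13 and 1.21, and the Tcf21 stromal ratio 1.03 and 1.14, with free RNA subtracted and with median scaling. Past 1.5-fold, 20 vascular smooth muscle members passed with no minimum count and 13 otherwise, and 10 myoid members passed with median scaling and 6 otherwise. Median scaling changed the differentiating split from 7 higher and 10 lower to 10 and 4. No share of all genes was computed for these alternative counts. Leaving out clusters with over 10% doublets removed the late spermatocytes of the merged clustering, so no value of theirs was given. No paired analysis was possible because each condition had 1 library.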
